A study of Mus musculus with 3 samples.

Results

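A set of 10 genes of the p53 response and of cell death was followed in mouse heart tubes that lack Sox7: Trp53, Mdm2, Ccng1, Bax, Bbc3, Pmaip1, Sesn2, Ei24, Trp53inp1 and Phlda3. They were chosen by symbol, and all 10 of them are among the 23337 gene symbols counted. Bulk RNA-seq of total RNA was done on heart tubes at embryonic day 9.5, with 2 libraries of the Sox7-null genotype, SOX7 (-/-), and 1 wild-type library. The series asks which transcripts change in the developing heart without SOX7, a transcription factor of endothelium and endocardium. The labels do not give the allele, the strain, or whether a tube came from 1 embryo or a pool. The p-values thus reflect how far the 2 Sox7-null libraries lie apart, perhaps for technical reasons. By edgeR they rest mostly on the spread shared by all genes (median prior of 11.8 degrees of freedom), against 1 from the gene itself. The lone wild-type library is assumed to vary as the null libraries do.

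The p53 protein, encoded by Trp53, is a transcription factor that is held low by Mdm2, a ubiquitin ligase whose own gene p53 switches on. When DNA damage or another stress frees p53 from Mdm2, it raises genes that stop the cell cycle, repair DNA or start apoptosis. The apoptosis genes include Bax, which opens pores in the outer mitochondrial membrane, and Bbc3 (Puma) and Pmaip1 (Noxa), small BH3-only proteins that bind and block the protective members of the BCL2 family. In mouse embryos the loss of Mdm2 is lethal unless Trp53 is lost as well. Several of these genes also answer to other stress factors, among them Sesn2, Bbc3 and Pmaip1, which Atf4 and its partner Ddit3 (Chop) can raise without p53.

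Promoters are shown for the 3 genes that passed the test (Sesn2, Bbc3 and Ei24) and for Mdm2, the feedback gene that did not, so that their p53 motifs can be compared. They come from RefSeq on GRCm38.p6 and run from 250 bases before to 50 bases after the annotated start, 5′ to 3′ on the gene's strand. Bbc3 has 3 such starts, and the first is shown. Capitals mark matches, on either strand, to the p53 half-site, to an adjacent pair of p53 cores, to the core of the C/EBP-ATF response element read by Atf4 (TGATGNAA), or to the CCAAT box (CCAAT, or ATTGG on the other strand).
Sesn2 chr4:132510407-132510706 (-): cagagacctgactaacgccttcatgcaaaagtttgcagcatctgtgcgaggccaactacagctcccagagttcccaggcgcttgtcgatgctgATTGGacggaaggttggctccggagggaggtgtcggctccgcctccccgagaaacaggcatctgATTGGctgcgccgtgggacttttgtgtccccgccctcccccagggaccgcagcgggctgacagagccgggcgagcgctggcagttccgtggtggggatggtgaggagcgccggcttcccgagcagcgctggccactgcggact
Bbc3 chr7:16309333-16309632 (+): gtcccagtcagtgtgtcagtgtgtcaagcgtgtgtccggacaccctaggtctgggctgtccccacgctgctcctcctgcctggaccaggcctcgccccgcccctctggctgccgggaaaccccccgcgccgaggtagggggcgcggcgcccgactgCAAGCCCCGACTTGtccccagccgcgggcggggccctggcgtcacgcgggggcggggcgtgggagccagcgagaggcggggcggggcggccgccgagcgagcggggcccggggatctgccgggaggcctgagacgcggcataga
Ei24 chr9:36797285-36797584 (-): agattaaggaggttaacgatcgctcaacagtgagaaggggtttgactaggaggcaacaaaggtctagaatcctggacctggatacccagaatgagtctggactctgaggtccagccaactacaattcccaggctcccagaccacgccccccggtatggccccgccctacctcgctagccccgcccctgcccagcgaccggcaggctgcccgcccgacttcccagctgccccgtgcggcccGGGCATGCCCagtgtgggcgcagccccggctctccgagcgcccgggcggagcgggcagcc
Mdm2 chr10:117710709-117711008 (-): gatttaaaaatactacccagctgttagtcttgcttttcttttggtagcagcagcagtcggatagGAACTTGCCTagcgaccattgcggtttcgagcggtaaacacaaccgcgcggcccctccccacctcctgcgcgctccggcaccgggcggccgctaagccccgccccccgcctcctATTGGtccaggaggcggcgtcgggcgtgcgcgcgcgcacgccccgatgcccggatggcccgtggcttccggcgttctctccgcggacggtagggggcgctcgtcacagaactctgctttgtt

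A strict p53 half-site lies 10 bases before the start of Ei24 and 186 bases before that of Mdm2. Bbc3 instead holds an adjacent pair of p53 cores 94 bases before its first start. Sesn2 holds neither in this window and has 2 CCAAT boxes, 157 and 93 bases upstream. Of the 8 members with a promoter in the table, 5 hold the half-site (Trp53, Mdm2, Ccng1, Bax and Ei24), against 9.55% of all 27025 genes with one. The adjacent pair is in Trp53 and Bbc3, 2 of the 8, against 8.19% of genes. No member promoter holds TGATGNAA, which 4.51% of genes do, and 5 hold CCAAT, against 41.1%. The half-site and the pair can overlap, as they do in Trp53. The members were picked as p53 genes, a match does not show a working site, and these windows leave out introns, where p53 sites often lie.

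Sesn2 and Bbc3 were higher and Ei24 was lower in the Sox7-null heart tubes, and the other 7 genes, Trp53 and Mdm2 among them, did not pass the test. Sesn2 was higher by a log2 fold change of 2.85 ± 0.32 (SE; edgeR quasi-likelihood test, adjusted p = 0.000217), Bbc3 by 1.62 ± 0.44 (adjusted p = 0.0215), and Ei24 fell by 0.80 ± 0.18 on the same scale (adjusted p = 0.00856). The threshold was an adjusted p of 0.05. Across all 13334 genes tested, 11.3% were higher and 10.2% lower by this rule, and 21.6% changed in either direction, so 3 of 10 is not far from the background. In DESeq2 the same 3 members passed, against 8.61% of genes higher, 6.08% lower and 14.7% in all, and in limma-voom Sesn2 and Ei24 did, against 9.39% higher, 9.73% lower and 19.1% in all. After removal of a trend on transcript length and GC content, Pmaip1 passed beside these 3, against 15.7% of genes in all. With no filter on low counts edgeR called no gene at all, and the smallest adjusted p was 0.122. The median log2 fold change of the 10 was -0.04, beside 0.01 for all genes tested. All 10 passed the filter on low counts.

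**Figure D1:**
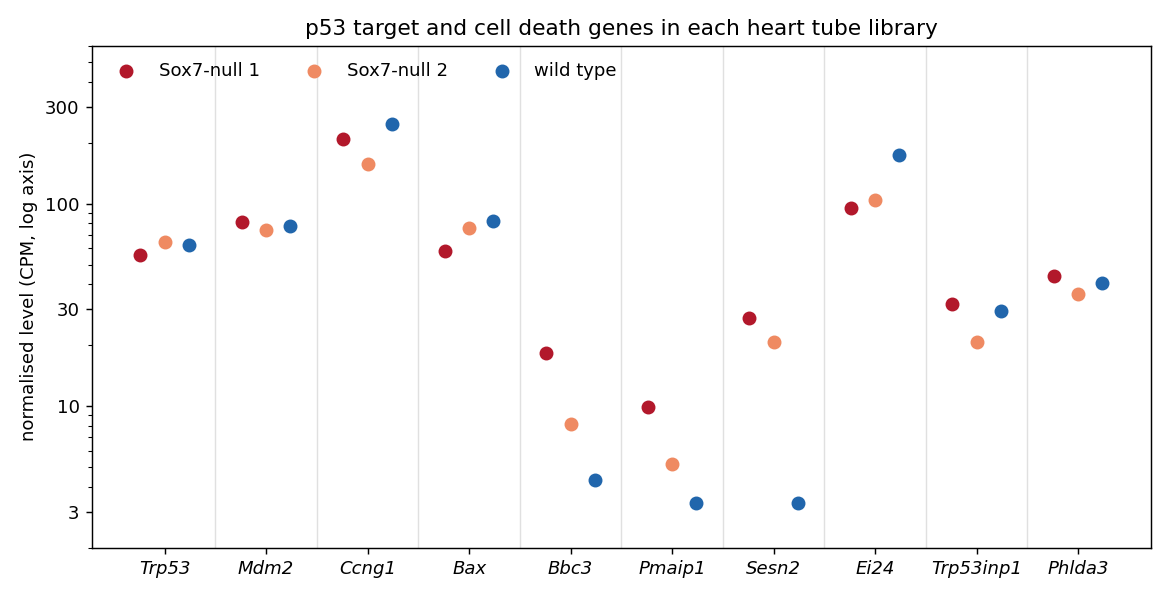
Normalised level of each of the 10 genes in Sox7-null 1 (red), Sox7-null 2 (orange) and the wild type (blue), in CPM on a log axis, 1 point per library. For Sesn2, both null libraries, at 27.2 and 20.8 CPM, stand far above the wild type at 3.32 CPM, while the points of Trp53, Mdm2 and Phlda3 lie close together.

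Libraries held 13139823 and 13618338 reads assigned to genes in Sox7-null 1 and 2, against 13789388 for the wild type. Sox7 itself had 2 and 7 reads in Sox7-null tubes, against 222 in the wild type. Levels below are in CPM, the TMM-scaled counts, which can be compared between libraries for one gene. To compare genes, the CPM was divided by the length in kilobases of the longest GENCODE M21 transcript.

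Trp53, the gene of p53, had 55.7 and 64.7 CPM in Sox7-null tubes, against 62.7 CPM in the wild type. Mdm2, its inhibitor and target, had 81.4 and 74.4 CPM in Sox7-null tubes, against 77.1 CPM in the wild type. For both genes the wild type lay between the 2 null libraries. The log2 fold change was -0.06 for Trp53, with a 95% interval of -0.50 to 0.38 (edgeR adjusted p = 0.866), and 0.01 for Mdm2, with an interval of -0.41 to 0.43 (adjusted p = 0.969). Changes inside these intervals are not excluded here, and the intervals are not limits of detection. The related inhibitor Mdm4 had 165 and 155 reads in Sox7-null tubes, against 157 in the wild type (log2 fold change -0.01 ± 0.27, adjusted p = 0.978).

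Among the mitochondrial killers, Bbc3 had 246 and 113 reads in Sox7-null tubes, against 57 in the wild type, or 18.2 and 8.20 CPM against 4.30 CPM. Both null libraries were higher, but Sox7-null 1 stood well above Sox7-null 2. Its level was 3.07-fold that of the wild type by the fit, and the log2 difference was 1.97 for Sox7-null 1 and 0.86 for Sox7-null 2. Counting error alone gave a 95% exact interval of 2.31 to 4.13 for the ratio. Bbc3 no longer passed with limma-voom (adjusted p = 0.0657), among genes with a mean of at least 5 CPM (0.0522) or with no filter on low counts (0.208); it passed in DESeq2 (0.0370).

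Pmaip1, the other BH3-only gene, had 133 and 71 reads in Sox7-null tubes, against 44 in the wild type, or 9.87 and 5.15 CPM against 3.32 CPM. Its pattern was that of Bbc3 at a lower level, with Sox7-null 1 highest and the wild type lowest. The log2 fold change of 1.18 ± 0.44 did not pass (edgeR adjusted p = 0.0764), though it did after removal of the length and GC trend (1.42, adjusted p = 0.0456) and with library sizes in place of TMM (1.26, adjusted p = 0.0434). Bax, whose product forms the pore, had 58.4 and 75.8 CPM in Sox7-null tubes, against 81.7 CPM in the wild type. Both null libraries lay below the wild type, Sox7-null 2 only slightly, and the log2 fold change of -0.28 ± 0.21 did not pass (adjusted p = 0.364).

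Sesn2 encodes sestrin 2, a leucine sensor that restrains mTORC1 signalling. It had 366 and 286 reads in Sox7-null tubes, against 44 in the wild type, or 27.2 and 20.8 CPM against 3.32 CPM. The null libraries were close to each other and far from the wild type, with log2 differences of 2.86 and 2.48. The fitted level was 7.20-fold that of the wild type, with a 95% exact interval for counting error of 5.31 to 10.02. After removal of the length and GC trend, the log2 fold change was 2.46 (adjusted p = 0.000224). Sesn1, its sister gene and also a p53 target, had 202 and 161 reads in Sox7-null tubes, against 219 in the wild type and did not pass (log2 fold change -0.31 ± 0.26, adjusted p = 0.433). Sesn2 was the only one of the 10 with a log2 difference of at least 1 from the wild type in both null libraries, a mark that 5.24% of tested genes reached upward and 2.71% downward. Sox7-null 1 alone put Sesn2, Bbc3 and Pmaip1 past it upward, with 10.7% of tested genes, and Sox7-null 2 alone put Sesn2 past it, with 5.74%. Downward, neither library put a member past it, against 7.72% of tested genes for Sox7-null 1 and 3.59% for Sox7-null 2.

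Ei24 encodes a membrane protein of the endoplasmic reticulum that is needed for autophagy. It had 1281 and 1441 reads in Sox7-null tubes, against 2297 in the wild type, or 95.03 and 105 CPM against 173 CPM. The null libraries were close to each other and both well below the wild type. The log2 differences were -0.86 in Sox7-null 1 and -0.73 in Sox7-null 2. Ei24 also passed in DESeq2 (adjusted p = 0.00845), in limma-voom (0.0122) and after removal of the length and GC trend (0.0158).

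Ccng1 encodes cyclin G1, which brings a phosphatase to Mdm2. It had 208 and 157 CPM in Sox7-null tubes, against 246 CPM in the wild type. Both null libraries were lower, with a log2 fold change of -0.43 ± 0.19 that did not pass (edgeR adjusted p = 0.132). Trp53inp1, a stress protein that acts in autophagy and apoptosis, had 32.0 and 20.8 CPM in Sox7-null tubes, against 29.4 CPM in the wild type. Phlda3, which competes with Akt for membrane lipids, had 43.9 and 35.9 CPM in Sox7-null tubes, against 40.4 CPM in the wild type. In both cases the wild type lay between the null libraries. The 95% interval of the log2 fold change was -0.72 to 0.41 for Trp53inp1 (adjusted p = 0.711) and -0.49 to 0.45 for Phlda3 (adjusted p = 0.963).

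**Figure D2:**
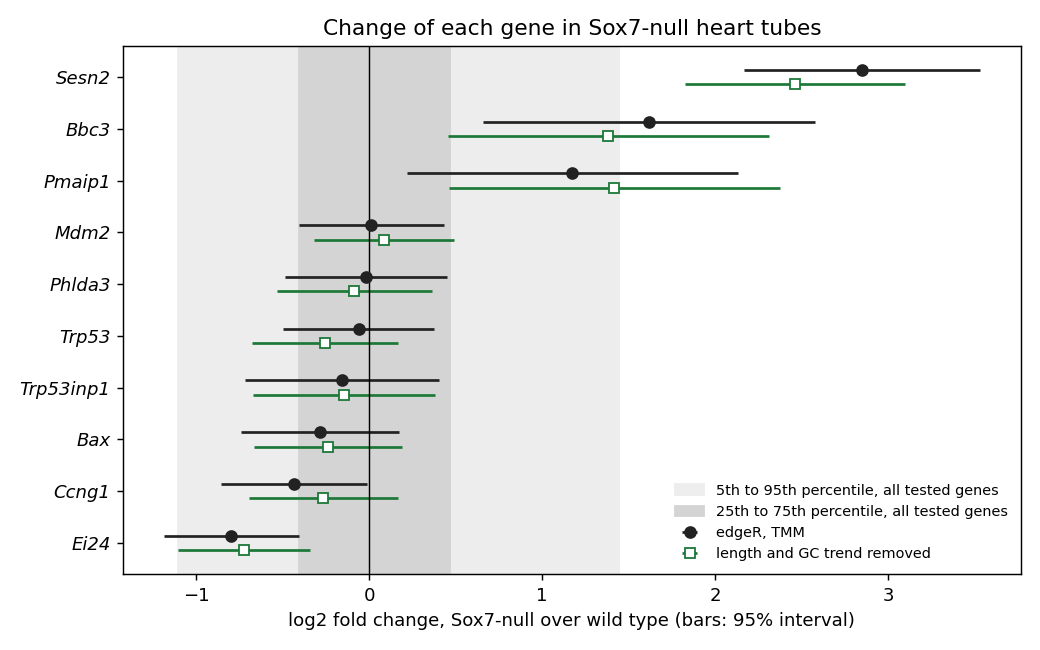
Log2 fold change of each gene, Sox7-null over wild type, with its 95% interval, by edgeR with TMM scaling (filled circles) and after removal of the length and GC trend (open squares). Grey bands give the middle of all tested genes by TMM scaling. They run from the 25th to the 75th (-0.41 to 0.47) and from the 5th to the 95th percentile (-1.10 to 1.45). By TMM scaling Sesn2 and Bbc3 lie above the wider band. No band was made for the fit with the trend removed, so the squares are not to be read against these.

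By position alone, 3 genes had both null libraries above the wild type (Sesn2, Bbc3 and Pmaip1) and 3 had both below (Ei24, Ccng1 and Bax). Of all tested genes, 43.1% were above in this sense and 43% below, 86.1% in all, against 6 of the 10. The remaining 4, Trp53, Mdm2, Trp53inp1 and Phlda3, had the wild type between the null libraries.

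**Figure D3:**
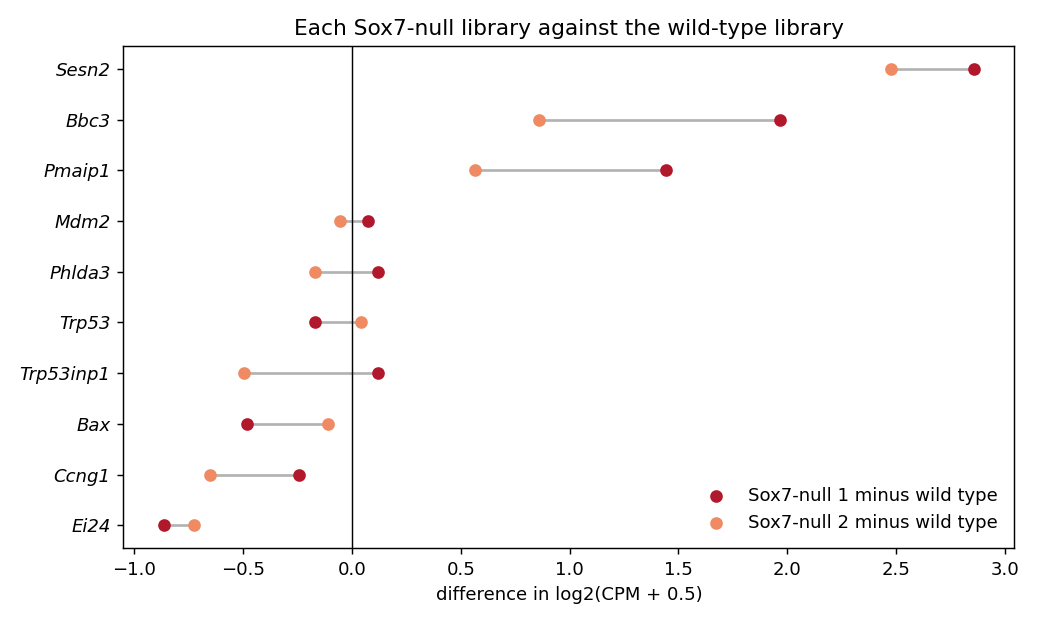
Difference in log2(CPM + 0.5) between each Sox7-null library and the one wild-type library, for each gene; red is Sox7-null 1 and orange is Sox7-null 2. Bbc3 and Pmaip1 differ most between the 2 null libraries (1.97 and 0.86, 1.44 and 0.57), and both comparisons share the wild-type library.

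Per kilobase of transcript, the 3 genes with both null libraries above the wild type were the 3 lowest of the 10 in the wild type. The same wild-type library sets both the rank and the reference, so a low value there favours both. The match is thus partly built in. Bbc3 had 10.1 and 4.52 CPM per kilobase in Sox7-null tubes, against 2.37 in the wild type. Pmaip1 had 3.62 and 1.89 CPM per kilobase in Sox7-null tubes, against 1.22 in the wild type, and Sesn2 had 7.81 and 5.97 against 0.955. Sesn2 and Pmaip1 had the same 44 reads in the wild type, so their order there rests only on the transcript lengths used. In both null libraries Sesn2 was above Pmaip1. At the other end, Ei24 had 41.2 and 45.3 CPM per kilobase in Sox7-null tubes, against 75.02 in the wild type, Bax had 53.1 and 68.9 against 74.2, and Ccng1 had 59.4 and 44.7 against 70.2. These 3 could not be put in order in the wild type, where they lay closer together than Bax and Ccng1 did between the null libraries. In between, in the wild type, stood Phlda3 (28.2), Mdm2 (24.5), Trp53 (19.2) and Trp53inp1 (5.41). The members also differ in base composition, with 65.2% GC in Bbc3 and 63.5% in Bax, and 38.8% in Trp53inp1.

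Other targets of p53 differed in direction. Among 38 tested there were 7 that rose and 3 that fell, against 11.3% and 10.2% of all genes tested, with a median log2 fold change of 0.39 beside 0.01 for all genes. After removal of the length and GC trend, 7 rose and 2 fell (median 0.26), against 7.62% and 8.12% of all genes by that fit. The cell cycle inhibitor gene Cdkn1a had 1234 and 660 reads in Sox7-null tubes, against 215 in the wild type, and on the log2 scale it was higher by 2.10 ± 0.34 (edgeR adjusted p = 0.00160). Gadd45a, a growth arrest gene that Atf4 can also raise, had 232 and 158 reads in Sox7-null tubes, against 30 in the wild type (2.66 ± 0.39, adjusted p = 0.000978). The death receptor gene Tnfrsf10b had 331 and 313 reads in Sox7-null tubes, against 152 in the wild type (1.04 ± 0.24). All 3 were higher in both null libraries, Cdkn1a more so in Sox7-null 1. The stress cytokine gene Gdf15 had 45 and 11 reads in Sox7-null tubes, against 1 in the wild type, a 27.2-fold ratio with a 95% exact counting interval of 4.69 to 1095 (edgeR adjusted p = 0.0250, and 0.119 in limma-voom, where it did not pass). The ratio joins null libraries that lay far apart, with differences in log2(CPM + 0.5) of 2.74 for Sox7-null 1 and 1.17 for Sox7-null 2. Perp, a gene of cell adhesion and apoptosis, fell (-0.83 ± 0.20, adjusted p = 0.0115), as did Bloc1s2 (-0.90 ± 0.21, adjusted p = 0.00992), but with the trend removed neither passed (adjusted p = 0.0536 and 0.359). In DESeq2, 3 of the 38 passed as higher and 2 as lower. Several of the 38, Gdf15 and Fas among them, had no adjusted p there. The shares of the 11225 genes that had one were 8.61% and 6.08%.

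Of 25 regulators and partners of p53, 22 could be tested, of which 1 rose and 2 fell (median -0.13), against 11.3% and 10.2% of all genes. After removal of the length and GC trend, 1 rose and 4 fell, against 7.62% and 8.12%. Ppp1r13l, which encodes the p53 inhibitor iASPP, had 947 and 652 reads in Sox7-null tubes, against 278 in the wild type (1.49 ± 0.27, edgeR adjusted p = 0.00260). Twist1 (-0.93 ± 0.23) and the kinase gene Trp53rk (-1.05 ± 0.33, adjusted p = 0.0387) fell. In DESeq2 the log2 fold changes were much the same (-0.92 and -1.05) and did not pass (adjusted p = 0.0673 and 0.248). The p53 relatives Trp63 and Trp73 had 0 reads in both null libraries, and 5 and 0 in the wild type. Cdkn2a, whose Arf product inhibits Mdm2, had 1 read in each of the 3 libraries.

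The protective side of the BCL2 family did not pass the test in either direction. By edgeR 0 of 4 tested genes rose and 0 fell, against 11.3% and 10.2% of all genes, and also 0 at an unadjusted p under 0.05, in DESeq2 and in limma-voom. Bcl2l2 came closest, with a log2 fold change of 0.57 ± 0.26 (edgeR unadjusted p = 0.0505, adjusted p = 0.143). Mcl1, the partner that Pmaip1 binds, had 2210 and 2297 reads in Sox7-null tubes, against 2579 in the wild type (-0.23 ± 0.17, edgeR adjusted p = 0.361). Bcl2 had a log2 fold change of 0.09 ± 0.20 (adjusted p = 0.804) and Bcl2l1 of 0.15 ± 0.22 (adjusted p = 0.664), and both were below 0 after removal of the length and GC trend (-0.18 and -0.03).

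Among 10 further pore-forming and BH3-only genes, 2 rose and 3 fell (median 0.23), against 11.3% and 10.2% of all genes, and in DESeq2 2 passed as higher and 2 as lower, against 8.61% and 6.08%. Bnip3, a mitophagy gene raised by low oxygen, had 17124 and 15007 reads in Sox7-null tubes, against 5529 in the wild type (2.83-fold by the fit, edgeR adjusted p = 0.000217). Its relative Bnip3l rose by 0.64 ± 0.16. The BH3-only genes Bad (-1.10 ± 0.23, adjusted p = 0.00554) and Bik (-1.06 ± 0.27) and the pore former Bok (-1.01 ± 0.25) fell, but Bik did not pass in DESeq2 (log2 fold change -1.05, adjusted p = 0.116). Bad, for one, had 170 and 198 reads in Sox7-null tubes, against 383 in the wild type.

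Downstream of the mitochondria, 0 of 19 caspase and apoptosome genes rose by edgeR (1 at an unadjusted p under 0.05, and 0 in DESeq2 and limma-voom) and 3 fell, against 11.3% and 10.2% of all genes, with a median of -0.16. In DESeq2 2 of them passed as lower, against 6.08% of all genes. Cycs, which encodes the cytochrome c that triggers the apoptosome, had 10373 and 12943 reads in Sox7-null tubes, against 22229 in the wild type (-0.97 ± 0.15, edgeR adjusted p = 0.00132). The caspase inhibitor and mitotic gene Birc5 (-0.81 ± 0.20) and the initiator caspase gene Casp8 (-1.002 ± 0.31, adjusted p = 0.0380) fell too. Casp8 had a like log2 fold change in DESeq2 (-0.996) but did not pass there (adjusted p = 0.206), with the trend removed (0.0703) or among genes with a mean of at least 5 CPM (0.0587). The apoptosome scaffold Apaf1 (0.59 ± 0.21, adjusted p = 0.0614) and the initiator Casp9 (0.09 ± 0.24, adjusted p = 0.821; -0.17 with the trend removed) did not pass, though Apaf1 did with library sizes in place of TMM (adjusted p = 0.0277).

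Of 11 death receptor and adaptor genes tested, 2 rose and 1 fell (median -0.11), against 11.3% and 10.2% of all genes. With the trend removed 2 rose and 2 fell, against 7.62% and 8.12%, and in DESeq2 1 passed as higher and 1 as lower, against 8.61% and 6.08%. Tnfrsf10b, which stands in this list too, and Tnfrsf12a (0.75 ± 0.23, edgeR adjusted p = 0.0363) rose, but Tnfrsf12a did not pass in DESeq2 (0.75, adjusted p = 0.115). Cflar, the decoy that blocks caspase 8, had 444 and 415 reads in Sox7-null tubes, against 882 in the wild type (-1.08 ± 0.20, adjusted p = 0.00297). Fas, another receptor gene of p53, had 17 and 9 reads in Sox7-null tubes, against 6 in the wild type and did not pass (adjusted p = 0.434).

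**Figure D4:**
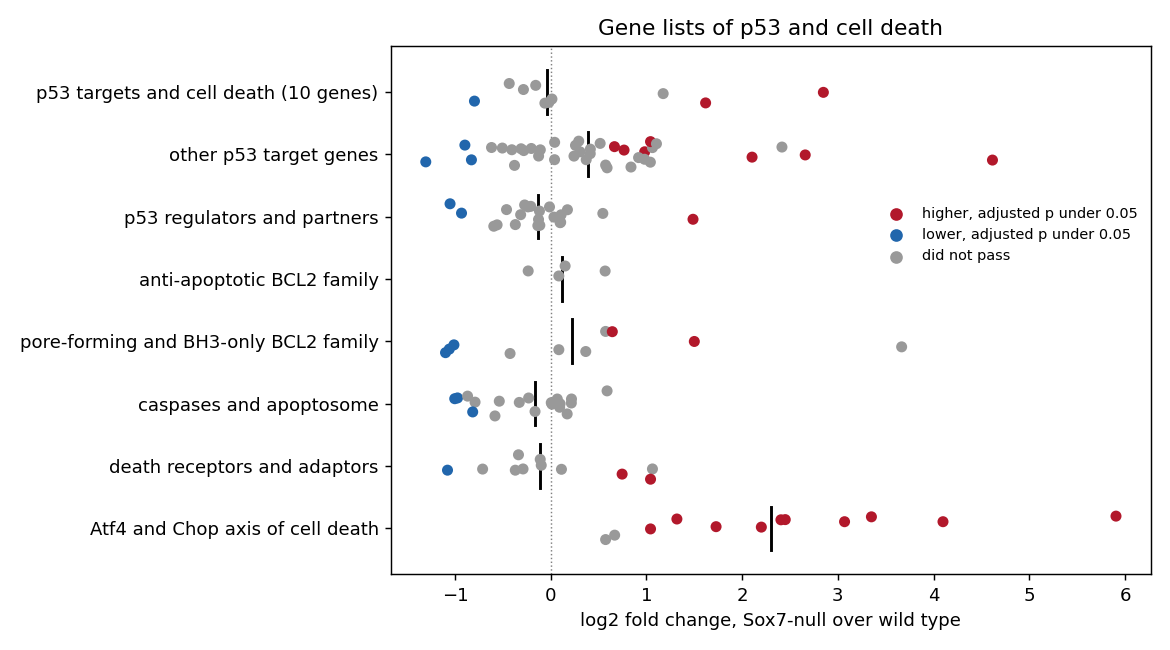
Log2 fold change, Sox7-null over wild type, of every tested gene of the lists, 1 point per gene and a bar at each list's median. Red and blue points passed at an adjusted p under 0.05 as higher and lower; the medians lie between -0.16 and 0.39 in the first 7 rows and at 2.30 in the Atf4 and Chop row.

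In the list of genes that link Atf4 and Chop to cell death, 10 of 12 rose and 0 fell by edgeR, and likewise in DESeq2 and limma-voom, with 12 higher at an unadjusted p under 0.05. Of all genes, 11.3% were higher by edgeR, 8.61% in DESeq2 and 9.39% in limma-voom, all at an adjusted p under 0.05. For the unadjusted p no share of all genes is given here, so that count has no background beside it. The median was 2.30, and 2.54 in Sox7-null 1 and 1.87 in Sox7-null 2. Ddit3 had 872 and 404 reads in Sox7-null tubes, against 61 in the wild type (3.35 ± 0.44, edgeR adjusted p = 0.000540). Atf4 had 5204 and 3517 reads in Sox7-null tubes, against 925 in the wild type (2.20 ± 0.25). In both genes, as in Bbc3, Pmaip1 and Cdkn1a, Sox7-null 1 was higher than Sox7-null 2. This order was not particular to them. Sesn2, Mdm2, Ccng1, Trp53inp1 and Phlda3 had it too, while Trp53, Bax and Ei24 had the reverse. Chac1, which degrades glutathione, had 439 and 313 reads in Sox7-null tubes, against 6 in the wild type (5.90 ± 0.45, adjusted p = 1.78e-05). Trib3, a pseudokinase raised by Ddit3, had 1450 and 870 reads in Sox7-null tubes, against 66 in the wild type (4.10 ± 0.36). Ddit4, an inhibitor of mTORC1 signalling, had 2762 and 1976 reads in Sox7-null tubes, against 275 in the wild type (3.07 ± 0.27). Ero1l, an oxidase of the endoplasmic reticulum, had 6656 and 4043 reads in Sox7-null tubes, against 955 in the wild type (2.45 ± 0.28). These 4 were also higher in both null libraries, and highest in Sox7-null 1. This list was drawn up with earlier results of these data known, so its direction is not independent evidence.

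Markers of other cell types also differed between the libraries. By edgeR, which called 11.3% of all genes higher and 10.2% lower, 8 of 8 platelet and megakaryocyte markers rose, with a summed level of 380 and 233 CPM in Sox7-null tubes, against 62.0 CPM in the wild type. Of 10 liver bud and foregut markers, 8 fell and 1 rose. Their sum was 17.1 and 13.3 CPM in Sox7-null tubes, against 53.9 CPM in the wild type. The riser, Sox17, had 14.6 and 10.6 CPM in Sox7-null tubes, against 2.41 CPM in the wild type. Most of both null sums was thus Sox17, so they understate the fall of the others. In DESeq2, 2 passed as lower and Sox17 as higher, and the other markers had no adjusted p there. Cardiomyocyte markers summed to 32161 and 31152 CPM in Sox7-null tubes, against 24970 CPM in the wild type, with 5 of 10 higher and 0 lower, and endothelial markers to 559 and 549 CPM against 565 CPM, with 2 of 10 higher and 3 lower. Macrophage markers summed to 52.4 and 25.03 CPM in Sox7-null tubes, against 21.9 CPM in the wild type, with 3 of 7 higher and 1 lower (1 and 0 in DESeq2). Erythroid markers summed to 4543 CPM in Sox7-null 1 alone, against 14466 CPM in Sox7-null 2 and 14024 CPM for the wild type. Retina markers, checked because the extraction text names retinal cultures, summed to 2.89 and 1.45 CPM in Sox7-null tubes, against 2.49 CPM in the wild type, and 4 of 8 were at 0 reads throughout. The part of these markers' cell types in the changes of Sesn2, Bbc3 and Ei24 was not tested, and in bulk RNA fewer cells of a type cannot be told apart from less RNA per cell.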

How the data were processed

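The authors used CASAVA, TopHat2 and HTSeq, with DESeq2 1.10.1, per the submitters' processing notes. These name human builds while the symbols are those of mouse, so coordinates are given only for RefSeq promoters. Per the labels' protocols, total RNA was extracted with Trizol and made into stranded libraries. The deposited values are raw read counts per gene symbol. For the annotation and the strand setting of counting, the sources used here state nothing. In GENCODE M21, Bax and Sesn2 each overlap 1 other gene on the same strand, whose reads may not be told apart from theirs, and Ei24 overlaps 1 on the opposite strand, whose reads can be told apart only if counting used strand.

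Summary lines of the files (20.8% and 22.4% of reads in the Sox7-null libraries, 35.9% in wild type) were left out. Counts were tested with edgeR 4.0.16 (TMM, filterByExpr at a minimum count of 10, glmQLFit and glmQLFTest) in R 4.3.3, with Benjamini-Hochberg adjustment over 13334 genes. DESeq2 1.42.0 and limma-voom 3.58.1 were alternatives. DESeq2 gave an adjusted p to 11225 genes, and its shares are of these. Listed genes without one count as not passing there. Counts of listed genes at an unadjusted p under 0.05 are given without a share of all genes. The trend on the length and GC content of the longest transcript was fitted per library with mgcv 1.9.3 and used as an offset. On simulated counts the edgeR fit recovered 95% of genes changed by 2 on the log2 scale and 55% of those changed by 1. The simulation gave every gene the same spread, added no length or GC trend and changed only genes above a floor of reads. These shares are thus not the power for genes with a wider spread or fewer reads. Exact intervals cover counting error only, since reads are not independent molecules.

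Members and lists were chosen with earlier results of these data known. Every member is named; of the other p53 and cell death lists, up to 6 called genes by smallest p and 11 fixed genes, 1 of which is not reported here. Of all listed genes, 4 matched through an older symbol. Genes named outside this rule (Sesn1, Trp63, Trp73, Cdkn2a, Bcl2l2 and Sox17) were chosen after their values were seen.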

Additional observations from a re-analysis of the deposited data

How the results depend on the processing

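With no filter on low counts, edgeR called 0 of 17242 genes, hence 0 members higher and 0 lower and 0 genes higher and 0 lower in all, although 4113 had an unadjusted p under 0.05; the cause was not tested. Of the 10 members, 1 was higher (Sesn2) when genes under a mean of 5 CPM were left out and 1 (Sesn2) with limma-voom. With library sizes alone 3 were higher, and 3 after removal of the length and GC trend, Pmaip1 being the third in both. Of all genes tested, 9.39% were higher with limma-voom and 7.62% with the trend removed. For the 5 CPM filter and for library sizes alone no such share is given here. Those counts of members thus have no background beside them. Ei24 passed as lower in each fit with a filter. DESeq2 called 967 genes higher and 682 lower in all, against 1508 and 1366 by edgeR. With library sizes alone, which moved the median of all genes to 0.096, the log2 fold changes of Trp53 (0.0226), Phlda3 (0.0660) and Mdm4 (0.0717) turned positive, as did that of Mdm4 with no filter (0.00218). With the trend removed those of Bcl2 (-0.18), Bcl2l1 (-0.0291) and Casp9 (-0.17) turned negative; none of these 6 genes passed in any of these fits. With 1 null library left out no test remains. The value of Bbc3 was then 0.86 without Sox7-null 1 and 1.97 without Sox7-null 2, that of Sesn2 2.48 and 2.86, and that of Ei24 -0.73 and -0.86. No paired analysis was possible because the labels give the null and wild-type libraries no shared replicate number. With 44 to 57 wild-type reads, Sesn2, Pmaip1 and Bbc3 are the members that depth limits most.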

Other observations

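Ratios of reads between gene pairs within a library need no scaling between libraries; the pairs were chosen after the data were seen and were not tested. The ratio of Sesn2 to Sesn1 was 1.81 and 1.78 in Sox7-null tubes, against 0.201 in the wild type. Bbc3 to Bcl2l1, a killer against a protector that it binds, stood at 0.535 and 0.197 in Sox7-null tubes, against 0.126 in the wild type. Pmaip1 to Mcl1 stood at 0.0602 and 0.0309 in Sox7-null tubes, against 0.0171 in the wild type. Each of these was higher in both null libraries. Bax to Bcl2 was 0.932 and 1.05 in Sox7-null tubes, against 1.29 in the wild type, lower in both. Such ratios still hold the length and GC trend. By edgeR the log2 fold changes of Bax and Bcl2 were -0.28 and 0.09. With the trend removed they were -0.24 and -0.18, so the fall of this ratio depends on that trend. Mdm2 to Mdm4 was 6.65 and 6.61 in Sox7-null tubes, against 6.52 in the wild type, the closest of the 7 pairs examined, while Mdm2 to Trp53 was 1.46 and 1.15 in the null libraries, with the wild type between them at 1.23. Bbc3 to Bax was 0.313 and 0.108 in Sox7-null tubes, against 0.0526 in the wild type.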
